A study of Glycine max with 16 samples.

Results

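The comparison sets air-dried leaves of the transgenic soybean line B010C against air-dried leaves of the null line. Per the labels, soybean (Glycine max) seedlings 2 weeks old were dried in air for 6 h before the trifoliate leaves were taken, and both groups were treated so. B010C is 1 of 3 lines (A004A, A005B and B010C) made to over-express the transcription factor gene GmWRKY54, and null, which carries the line name B001A in the labels, is the control line. The sources used here do not say what drives the transgene, or whether the 2 labelled samples of a group are separate plants. Of 56044 genes in the deposited table, 30535 had at least 1 RPKM (read number corrected for gene length and for library size) in dehydrated B010C or dehydrated null and were kept. Of these, 27992 reached 1 RPKM in both, 855 in B010C alone and 1688 in null alone.

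WRKY proteins are plant transcription factors that bind W box sequences in promoters and are known for roles in defence and in the response to water shortage. A drying leaf accumulates the hormone abscisic acid, closes its stomata, and turns on genes for protective proteins and compatible solutes while genes of photosynthesis and growth are turned down. In bulk leaf RNA, fewer cells of a type and less RNA per cell cannot be told apart.

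Each group of 2 labelled samples has 1 deposited value per gene, so B010C and null were compared as 1 column against 1 column, with no replicate check and no p-value. The reads behind each value are unknown. Differences are given on the log2(RPKM + 1) scale, where 1 is 2-fold, and this scale understates the differences of genes with low values. The 8 columns summed to between 636011 and 818267 RPKM, with dehydrated B010C the highest, and held 28847 (dehydrated B010C) to 31333 genes at 1 RPKM or more. For 39 genes of the table, the watered columns labelled null and A005B ran against their dehydrated columns, with null and A004A at least 2-fold above the other 2 lines in watered leaves, and A004A and A005B likewise in dried leaves. Over both directions, null and B010C stood at least 2-fold apart from A004A and A005B in both treatments for 3 genes as labelled and for 40 with the watered null and A005B labels exchanged. The 40 include those 39 genes by definition, so this count restates them and is not a separate observation. A005B stood apart alone in both treatments for 12 genes as labelled and 5 exchanged, and null for 6 and 7. The labels are used as given, and summary results that use these watered columns are also given with the 2 labels exchanged.

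Neither the table nor the reference gene table pairs the soybean identifiers with gene names: 0 of 56044 matched. GmWRKY54 could therefore not be located by name, and the leaf marker genes that would check the tissue were not tested. Glyma.10G011300, an identifier that may belong to GmWRKY54 but that no source used here pairs with it, stood at 18.0 RPKM in dehydrated B010C, 119 in A004A, 238 in A005B and 11.7 in null. In watered leaves it stood at 9.05 RPKM in B010C, 51.1 in A004A, 73.0 in A005B and 11.5 in null. As labelled, B010C lay beside null in both treatments, with a log2 difference of 0.59 in dehydrated and -0.31 in watered leaves, and A004A and A005B lay above both. With the watered null and A005B labels exchanged, watered null would stand at 73.0 RPKM and watered A005B at 11.5, against 11.7 and 238 in dehydrated leaves.

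At 2-fold or more, more genes stood above null than below it in dried B010C leaves, while most genes lay slightly below. At 1.5-fold the balance turned, with 1885 genes higher and 2810 lower. At least 2-fold higher values were seen for 746 genes, 2.44% of those kept, and at least 2-fold lower values for 363 genes (1.19%). Differences of at least 4-fold were more one-sided, with 163 genes higher (0.534%) and 41 lower (0.134%), and at 8-fold there were 56 higher (0.183%) and 17 lower (0.0557%). The median difference over all genes kept was -0.15, with quartiles at -0.37 and 0.098, and 66.5% of genes had a lower value in B010C. Scaling moved this balance. Median-of-ratios scaling put the median at 0.019 and the counts at 1088 higher and 214 lower, and quantile normalization gave 838 and 243. With a pseudocount of 0.1 RPKM in place of 1 the counts were 1184 and 1156. Between 0.9 and 1.1 on the log2 scale, 183 genes lay just under the 2-fold line and 130 just over it on the higher side, and 197 and 126 on the lower side.

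**Figure D1:**
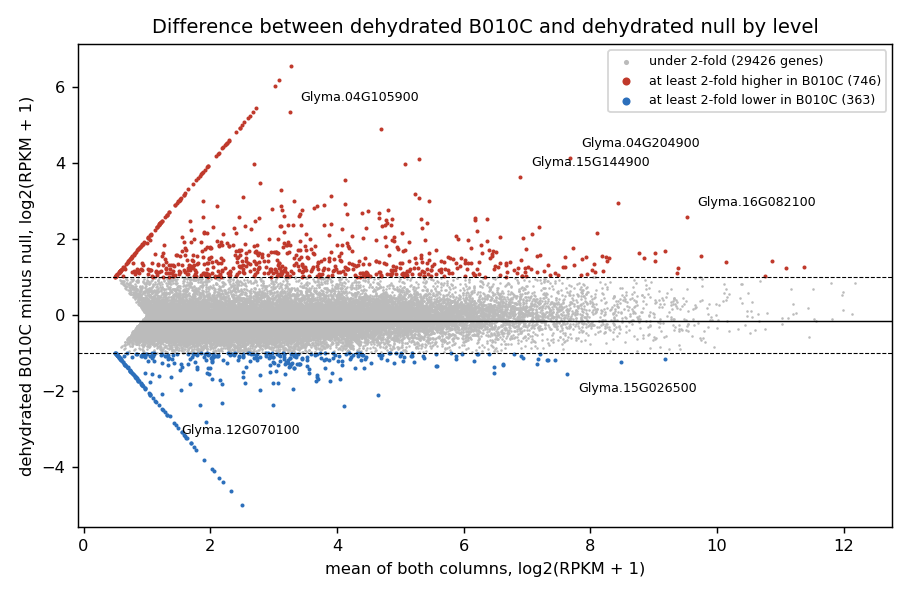
Difference between dehydrated B010C and dehydrated null, log2(RPKM + 1), against the mean level of both columns, 1 point per gene for 30535 genes. Red points are 746 genes at least 2-fold higher in B010C and blue points 363 genes at least 2-fold lower. Dashed lines mark 2-fold and the solid line the median of -0.15; the straight edges are genes listed at 0 in 1 of the columns.

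The share of higher genes grew with abundance, whereas the share of lower genes did not. Among genes whose higher value lay between 1 and 2 RPKM, 54 of 4224 were higher in B010C (1.28%) and 58 lower (1.37%). Among the 1538 genes that reached 100 RPKM, 105 were higher (6.83%) and 20 lower (1.30%), and the median difference was 0.070. In the classes from 1, 2, 5 and 20 RPKM the median was -0.17, -0.21, -0.17 and -0.053, so it also moved with level. Abundance here is the higher of the 2 compared values, and the added 1 RPKM holds back calls at low values. The 746 higher genes made up 7.14% of all RPKM in dehydrated B010C, 4.94% in A004A, 3.52% in A005B and 2.56% in null. The 363 lower genes made up 0.436% in dehydrated B010C, 0.655% in A004A, 0.777% in A005B and 1.15% in null. The order of B010C and null in these shares follows from how the genes were chosen.

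The widest differences were those of genes listed at 0 in 1 column. Of the 12 highest differences among genes of at least 5 RPKM, 11 were listed at 0 in dehydrated null, and 9 were listed at 0 in at least 3 of the 8 columns. Glyma.05G230500 stood at 93.0 RPKM in dehydrated B010C and 3.97 in A005B, and was listed at 0 in dehydrated A004A, dehydrated null and all 4 watered columns. Glyma.09G245100 stood at 71.3 RPKM in dehydrated B010C and 8.04 in A005B, and was listed at 0 in A004A and null. All of the 12 lowest were listed at 0 in dehydrated B010C and lay between 8.56 and 31.1 RPKM in null. Glyma.20G122100, the lowest, was listed at 0 in dehydrated B010C, A004A and A005B and stood at 31.1 RPKM in null. Glyma.08G229000 was listed at 0 in dehydrated B010C and A004A and stood at 3.17 RPKM in A005B and 24.0 RPKM in null. In all, 125 of the higher genes were listed at 0 in null and 97 of the lower genes at 0 in B010C. Every kept gene listed at 0 in 1 of these columns is at least 2-fold different by construction.

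Among abundant genes, the widest differences of B010C from null were larger upward than downward. The 6 highest differences among the 1538 genes of at least 100 RPKM ran from 3.19 to 4.89, and the 6 lowest from -1.28 to -1.55. In the 6 lowest, null was the highest of the dehydrated columns, and B010C was not always the lowest. Glyma.04G204900 stood at 860 RPKM in dehydrated B010C, 71.7 in A004A, 65.5 in A005B and 48.2 in null, a log2 difference of 4.13 from null. Watered leaves did not show that order, with 221 RPKM in B010C, 60.8 in A004A, 404 in A005B and 121 in null. Glyma.15G144900 stood at 418 RPKM in dehydrated B010C, 42.0 in A004A, 13.1 in A005B and 32.6 in null (log2 difference 3.64), and was lower in watered B010C (16.8 RPKM) than in watered null (46.4 RPKM). For both genes the dehydrated B010C value lay above all 7 other columns.

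On the lower side, Glyma.15G026500 stood at 115 RPKM in dehydrated B010C, 169 in A004A, 167 in A005B and 339 in null, a log2 difference of -1.55. Its watered values were 860 RPKM in B010C, 1075 in A004A, 846 in A005B and 1106 in null, so each line was lower after drying and null kept the most. Glyma.10G193500 stood at 51.4 RPKM in dehydrated B010C, 30.8 in A004A, 103 in A005B and 150 in null (log2 difference -1.52), against 304 to 424 RPKM in the 4 watered columns.

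**Figure D2:**
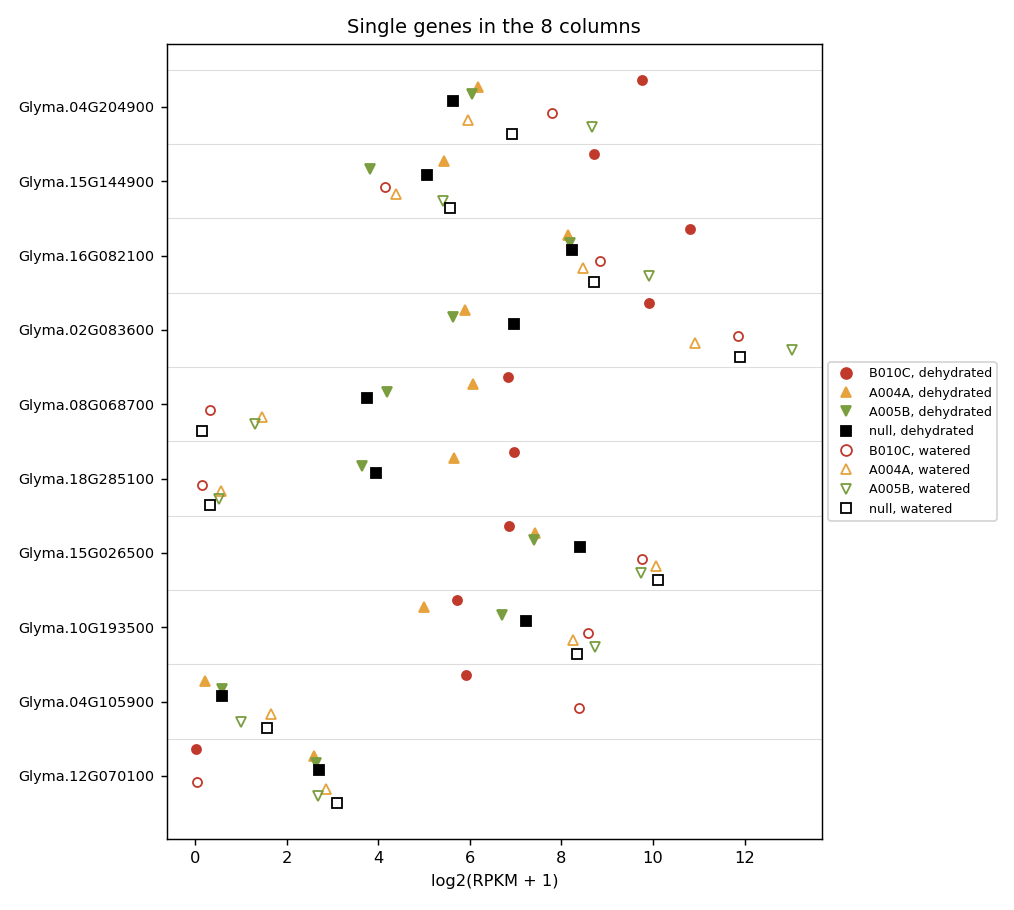
Level of 10 genes on the log2(RPKM + 1) axis, 1 row per gene, in the 4 dehydrated columns (filled symbols, upper in a row) and the 4 watered columns (open symbols, lower). Dehydrated B010C is the highest filled symbol in the first 6 rows, Glyma.04G105900 is high in both B010C columns, and Glyma.12G070100 is near 0 in both and between 5.04 and 7.56 RPKM in the other 6 columns.

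Genes higher in dried B010C leaves were often higher after drying in the other transgenic lines, and lower genes often lower. This was read in A004A and A005B, whose 4 columns play no part in the choice of genes. The 746 genes higher in dehydrated B010C were higher in dehydrated than in watered leaves by a median of 1.35 in A004A and 1.23 in A005B, where all genes kept had medians of -0.15 and -0.045. At least 2-fold higher values after drying in both lines were seen for 342 of the 746 (45.8%), against 15.3% of all genes kept, and at least 2-fold lower values in both lines for 32 (4.29%), against 17.8%. Among the 746, 309 had at most 1 RPKM in all 4 watered columns (41.4%), against 7.51% of all genes kept. On this scale such genes cannot be more than 2-fold lower after drying, so the filter on dehydrated values sets part of these shares. The 363 genes lower in dehydrated B010C had medians of -1.21 in A004A and -1.05 in A005B. Of these, 155 (42.7%) were at least 2-fold lower after drying in both lines and 29 (7.99%) at least 2-fold higher in both. With the watered null and A005B labels exchanged, the A005B medians were 1.11 for the higher and -0.95 for the lower genes, and the counts were 352 higher genes with higher values after drying in both lines and 153 lower genes with lower values.

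Many of the higher genes were close to silent in watered leaves. Of the 746, 309 (41.4%) had at most 1 RPKM in all 4 watered columns, against 42 of the 363 lower genes (11.6%) and 7.51% of all genes kept. Such a gene is kept only where it reaches 1 RPKM in dehydrated B010C or null, so the filter sets part of these shares. Glyma.18G285100 stood at 123 RPKM in dehydrated B010C, 49.2 in A004A, 11.5 in A005B and 14.5 in null, and at 0.486 RPKM or less in the 4 watered columns. Glyma.08G068700 stood at 113 RPKM in dehydrated B010C, 66.2 in A004A, 17.3 in A005B and 12.6 in null, and at 1.77 RPKM or less in watered leaves. These examples were taken from the 10 highest differences among genes of at least 100 RPKM with their values in view.

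**Figure D3:**
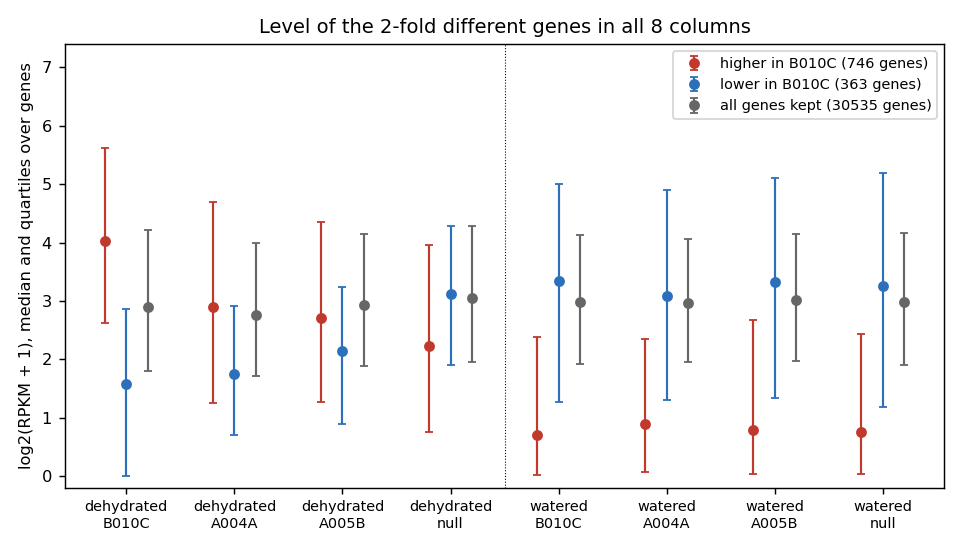
Median and quartiles over genes of log2(RPKM + 1) in each of the 8 columns, for 746 genes higher in dehydrated B010C than in null (red), 363 genes lower (blue) and all 30535 genes kept (grey). The red medians lie at 4.03 in dehydrated B010C and 2.23 in dehydrated null and between 0.71 and 0.89 in the watered columns, and the blue medians at 1.58 in dehydrated B010C, 3.11 in dehydrated null and between 3.08 and 3.33 in the watered columns.

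The size of the difference followed the size of the drying response over all genes, not just those past 2-fold. Genes were sorted into 8 classes by the mean drying response of A004A and A005B. In the 184 genes at least 16-fold lower after drying, the median difference between dehydrated B010C and null was -0.67, with 34 genes at least 2-fold lower (18.5%) and 4 higher (2.17%). The median was -0.47 in the 2013 genes lower by 4- to 16-fold, -0.34 at 2- to 4-fold and -0.21 at less than 2-fold, a class that also holds genes with a response of 0. It was -0.060 in the 8458 genes higher by less than 2-fold, 0.12 at 2- to 4-fold and 0.24 in the 1859 genes higher by 4- to 16-fold. In the 533 genes at least 16-fold higher after drying it was 0.41, with 96 genes at least 2-fold higher in B010C (18.0%) and 0 at least 2-fold lower. The median therefore stood higher in each class than in the one before.

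The watered differences in these classes were smaller, and their size depended on the labelling. In the 184 genes at least 16-fold lower after drying, watered B010C lay above watered null by a median of 0.13, and in the 533 genes at least 16-fold higher after drying it lay below by a median of -0.12, where all genes kept had -0.021. With the watered null and A005B labels exchanged, these medians were 0.064 (176 genes) and -0.0051 (518 genes). Among the 7703 genes of at least 20 RPKM in either dehydrated column, the 2 end classes had dehydrated medians of -0.71 (44 genes) and 0.41 (504 genes), and watered medians of 0.048 and -0.12, or -0.051 and -0.0048 with the labels exchanged. The lowest watered median in these abundant genes was that of a middle class, -0.17 in the 1971 genes lower by less than 2-fold. Across the 30535 genes, which are not independent replicates, the difference between dehydrated B010C and null correlated with the drying response of A004A and A005B at Pearson r = 0.42, and the watered difference at -0.14. With at least 20 RPKM these were 0.35 and -0.084. With the labels exchanged, r was 0.42 and -0.023 over all genes kept, and the dehydrated end classes had medians of -0.68 and 0.41.

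**Figure D4:**
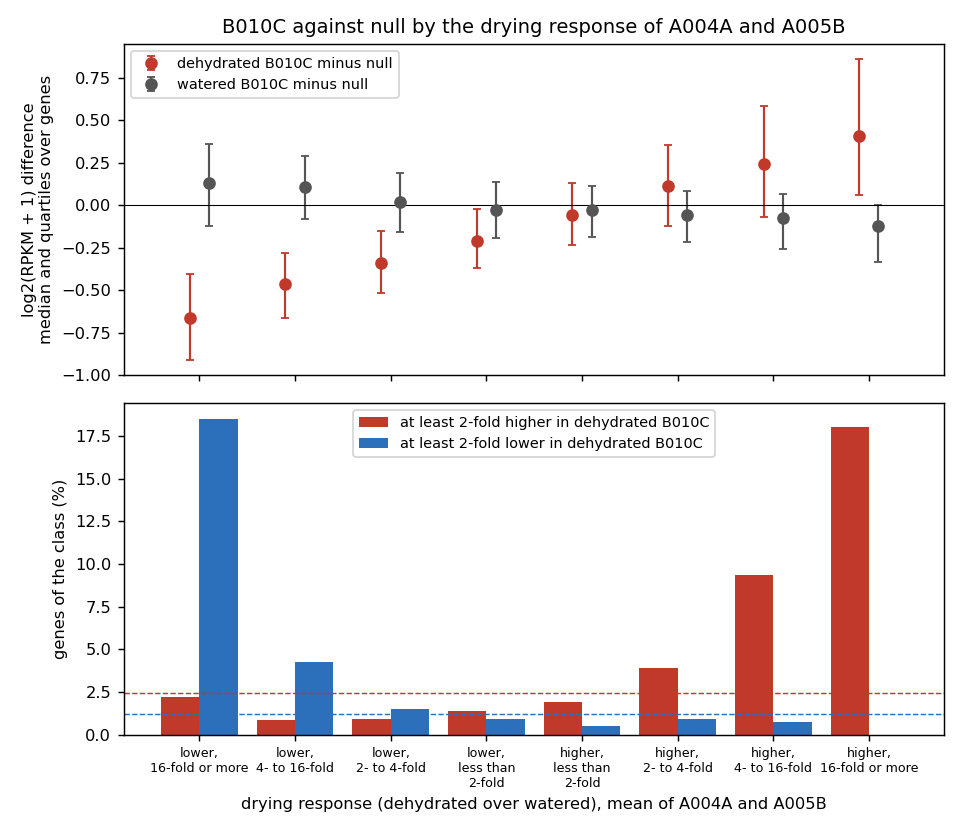
Upper panel, median and quartiles over genes of B010C minus null on the log2(RPKM + 1) scale in dehydrated (red) and watered (grey) leaves, in 8 classes of genes by the mean drying response of A004A and A005B. Lower panel, share of each class at least 2-fold higher (red) or lower (blue) in dehydrated B010C, with dashed lines at 2.44% and 1.19%, the shares over all genes kept. The dehydrated median runs from -0.67 in the class at least 16-fold lower after drying to 0.41 in the class at least 16-fold higher.

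A smaller number of genes ran against that pattern. Glyma.02G083600 was lower after drying in every line, yet stood highest in B010C among dried leaves, with 959 RPKM in B010C, 58.2 in A004A, 48.3 in A005B and 123 in null, against 3686 RPKM in watered B010C, 1941 in A004A, 8396 in A005B and 3834 in null. Glyma.16G082100 stood at 1795 RPKM in dehydrated B010C, 284 in A004A, 292 in A005B and 301 in null, and at 460 RPKM in watered B010C, 351 in A004A, 958 in A005B and 416 in null. B010C was higher dehydrated than watered for this gene, and the other 3 lines were lower. Both were picked with their values in view. On the lower side, Glyma.14G052000 stood at 231 RPKM in dehydrated B010C, 807 in A004A, 1163 in A005B and 547 in null, and at 112 RPKM in watered B010C, 244 in A004A, 163 in A005B and 364 in null.

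The levels of the other transgenic lines are given beside those of B010C and null as a description. All 3 comparisons share the null column, and the genes were chosen for the values of B010C and null, so the order of these 2 lines follows from the choice. For the 746 higher genes the median log2 level was 4.03 in dehydrated B010C, 2.90 in A004A, 2.71 in A005B and 2.23 in null. For the 363 lower genes it was 1.58 in dehydrated B010C, 1.75 in A004A, 2.14 in A005B and 3.11 in null. The median log2 difference from null was 1.39 in B010C, 0.56 in A004A and 0.39 in A005B for the higher genes, and -1.19 in B010C, -1.32 in A004A and -1.01 in A005B for the lower genes. Over all genes kept it was -0.15 in B010C, -0.29 in A004A and -0.13 in A005B. Over all genes kept, the median level was 2.89 in dehydrated B010C, 2.75 in A004A, 2.92 in A005B and 3.04 in null.

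Few of the differences were also at least 2-fold in watered leaves, although the shares lay above those over all genes kept. In watered leaves 139 of the genes kept were at least 2-fold higher in B010C than in null (0.455%) and 236 at least 2-fold lower (0.773%). Of the 746 genes higher in dehydrated B010C, 39 were also at least 2-fold higher in watered B010C (5.23%), and 35 were at least 2-fold lower there (4.69%). Of the 363 lower genes, 25 were also lower in watered B010C (6.89%) and 22 were higher (6.06%). With the watered null and A005B labels exchanged, 149 genes were higher and 242 lower in watered B010C; of the 746 higher genes 37 were also higher there and 81 lower, and of the 363 lower genes 28 were also lower there and 19 higher. The median watered difference was 0 for the higher and for the lower genes.

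Of the 39 genes higher in both treatments, 6 had both B010C columns at least 2-fold above all 6 other columns, and of the 25 lower genes, 3 had both at least 2-fold below. These lists were already chosen for B010C against null in both treatments. Under a different rule, counted within each treatment over the whole table, A005B stood apart alone in both for 12 genes and null for 6, as labelled. With the watered null and A005B labels exchanged these counts were 5 and 7. B010C and A004A were not counted by that rule, so whether B010C stood apart more often than other lines was not tested. Glyma.04G105900 stood at 59.6 RPKM in dehydrated B010C, 0.166 in A004A, 0.506 in A005B and 0.502 in null, and at 332 RPKM in watered B010C, 2.16 in A004A, 1.02 in A005B and 1.95 in null. Its near neighbour by identifier, Glyma.04G105500, was another of the 6 genes with both B010C columns above all others. It had 3.12 RPKM in dehydrated B010C, a listed 0 in A004A, 0.0689 in A005B and 0.0426 in null, and 9.24 RPKM in watered B010C, 0.176 in A004A, 0.0585 in A005B and 0.242 in null. In the opposite direction, Glyma.12G070100 stood at 0.0223 RPKM in dehydrated B010C, 5.04 in A004A, 5.28 in A005B and 5.48 in null, and at 0.0360 RPKM in watered B010C, 6.27 in A004A, 5.39 in A005B and 7.56 in null. The B010C values of these 3 genes do not overlap those of the other lines. They were picked with their values in view.

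Position along the genome was read from the chromosome number and order in the identifiers, since no genome was used here. Lower genes were most frequent among identifiers of chromosomes 14 and 15, with 34 of 1213 (2.80%) and 34 of 1513 (2.25%), where the other 18 chromosomes had 0.669% to 1.60%. Higher genes were most frequent among identifiers of chromosome 16, with 41 of 1127 (3.64%), and the other 19 chromosomes had 1.67% to 3.11%. In watered leaves chromosome 15 also had the largest share of lower genes, 26 of 1513 (1.72%, against 0.773% over all genes kept), and chromosome 14 had 0.907%. With the watered null and A005B labels exchanged, chromosome 14 had the largest share, 24 of 1213 (1.98%), and chromosome 15 had 19 of 1513 (1.26%).

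**Figure D5:**
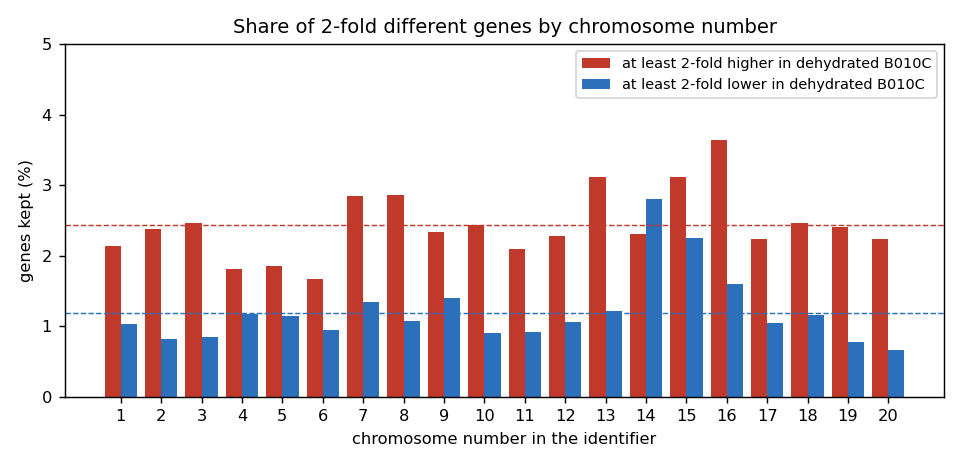
Share of genes kept that were at least 2-fold higher (red) or lower (blue) in dehydrated B010C than in dehydrated null, by the chromosome number in the identifier. Dashed lines mark the shares over all genes kept, 2.44% and 1.19%. The blue bars of chromosomes 14 and 15 reach 2.80% and 2.25%, and the red bar of chromosome 16 reaches 3.64%.

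Some of these genes were neighbours. Runs of at least 3 kept identifiers in a row that were all at least 2-fold different in 1 direction numbered 7 on the higher side (24 identifiers) and 2 on the lower side (9 identifiers). The longest held 6 identifiers, from Glyma.15G159500 to Glyma.15G160100, at 1.74 to 10.7 RPKM in dehydrated B010C, 0.674 RPKM or less in A004A and A005B and 0.0701 to 1.16 RPKM in null, with at most 1.30 RPKM in any watered column. Dehydrated B010C thus lay above every other column for this run. A run of 5 lower identifiers, from Glyma.14G200700 to Glyma.14G201100, lay between 0.379 and 5.68 RPKM in dehydrated B010C, 0.126 and 4.98 RPKM in A004A and A005B, and 1.82 and 15.5 RPKM in null, and its watered differences between B010C and null were 0.084 to 0.28. Whether neighbours are near-identical copies that share reads was not tested.

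The other run on the lower side, 4 identifiers ending at Glyma.14G052000, closes a stretch of chromosome 14 identifiers beginning at Glyma.14G042700, picked after its values were seen, with its ends set at lower genes. Its tally is therefore a description only, beside shares of 1.19% and 0.773% lower over all genes kept in dehydrated and watered leaves. Of 62 kept genes in the stretch, 9 were at least 2-fold lower in dehydrated B010C than in null and 0 higher, and in watered leaves 4 were lower and 0 higher, or 1 and 0 with the watered null and A005B labels exchanged. Shortly past its end by identifier lay a run of 3 higher identifiers, from Glyma.14G052200 to Glyma.14G052600, with dehydrated log2 differences of 1.40 to 2.67. The tally of 0 higher in dried leaves thus holds only for the ends chosen. Glyma.14G046000 in this stretch stood at 1.04 RPKM in dehydrated B010C, 1.75 in A004A, 0.669 in A005B and 9.20 in null, and at 1.67 RPKM in watered B010C, 1.45 in A004A, 1.22 in A005B and 6.23 in null. For this gene null lay above the 3 transgenic lines in both treatments, as labelled. In dried leaves null also lay above the 3 transgenic lines for the other lower genes of the stretch, except Glyma.14G051900 and Glyma.14G052000. For those, A004A and A005B lay above null.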

How the data were processed

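Leaf RNA was sequenced from 16 labelled samples in 8 groups of 2. The authors deposited RPKM values, 1 column per group, with TopHat as aligner per the submitters' processing notes; the sources used here do not give its version, the counting program, genome build, annotation or the way 2 samples became 1 column. Columns were tied to groups by name, and 0 columns had no group. Genes with at least 1 RPKM in dehydrated B010C or null were kept and compared as log2(RPKM + 1) in Python 3.11.15 with pandas 2.3.3 and numpy 2.4.6; a 2-fold difference (1 on the log2 scale) was counted. The calculation was tested on simulated data. No count model or limma fit was used, since a group has 1 value.

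The members and lists were chosen with earlier results of these data known. Named genes were to be the 12 highest and 12 lowest differences among genes of at least 5 RPKM and the 6 highest and 6 lowest among those of at least 100 RPKM; of these 36, examples are given, since no source names them. Gene lists by function, leaf markers and promoter motifs could not be used because 0 identifiers matched the gene table of assembly Glycine_max_v4.0. Alternatives covered the pseudocount, filter, scaling and fold. Depth is unknown, so no counting interval is given.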

Additional observations from a re-analysis of the deposited data

Results flagged for a closer look

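For 5 of the 36 genes picked by size of difference, B010C and null differed at least 2-fold in opposite directions in dehydrated and watered leaves. With 1 column per group, the difference between treatments was not tested. With the watered null and A005B labels exchanged, the count was 8, of which 4 were among these 5; Glyma.15G255700 was the one no longer among them, with 2.27 RPKM in watered B010C against 7.71 in the column labelled A005B. Glyma.06G189800, Glyma.08G049600, Glyma.10G277000 and Glyma.13G126100 joined them. Among all called genes as labelled, 35 of the 746 higher genes (4.69%) were at least 2-fold lower in watered B010C. Of the 363 lower genes, 22 (6.06%) were at least 2-fold higher there. With the labels exchanged these counts were 81 and 19. The 36 were picked for wide dehydrated differences, and whether such genes were more frequent among them was not tested. Values below are RPKM, and the difference of differences is dehydrated minus watered on the log2(RPKM + 1) scale. Glyma.09G245100 stood at 71.3 in dehydrated B010C and a listed 0 in dehydrated null, and at a listed 0 in watered B010C and 12.2 in watered null (9.90). Glyma.15G144900 stood at 418 in dehydrated B010C and 32.6 in dehydrated null, and at 16.8 in watered B010C and 46.4 in watered null (5.05). Glyma.10G049000 stood at 112 in dehydrated B010C and 11.4 in dehydrated null, and at 8.94 in watered B010C and 19.3 in watered null (4.21). Glyma.16G075900 was listed at 0 in dehydrated B010C and stood at 8.56 in dehydrated null, and stood at 9.65 in watered B010C and a listed 0 in watered null (-6.67). Glyma.15G255700 was listed at 0 in dehydrated B010C and stood at 13.1 in dehydrated null, and stood at 2.27 in watered B010C and a listed 0 in watered null (-5.52).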

How the results depend on the processing

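No paired analysis was possible because the deposited table has 1 column per group, and for the same reason leaving out single samples was not run; gene lists by function were not built. Genes higher and lower in dehydrated B010C numbered 746 and 363 as reported. Under other settings they numbered 1184 and 1156 with a pseudocount of 0.1, 163 and 41 at 4-fold, and 1885 and 2810 at 1.5-fold. The lower count was 223 with at least 5 RPKM in either column and 214 after median-of-ratios scaling. The median over all genes, -0.15, was -0.077 without a filter, -0.041 after quantile normalization and 0.019 after median-of-ratios scaling. Genes higher in both treatments numbered 117 in place of 39 with a pseudocount of 0.1, and genes lower in both 74 in place of 25, or 14 with at least 5 RPKM. The dehydrated medians of the classes at least 16-fold higher or lower after drying kept their sign and stayed within 1.5 times under every alternative run, the 0.1 pseudocount, filters, both scalings, either line alone and exchanged watered labels. All 36 genes picked by size kept their direction and 2-fold difference with a pseudocount of 0.1 and under both scalings. They were picked for wide differences, and a smaller pseudocount can only widen these, so this outcome was largely set by the choice. Unknown depth limits genes with low values, and 125 higher and 97 lower genes rest on a listed 0.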
